A study of Mus musculus with 53 samples.

Results

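Skeletal muscle genes are genes whose proteins build the contractile filaments of muscle fibres, release and take up the calcium that starts contraction, or supply its energy. The set was listed by symbol from the known roles of its members, with earlier results of these data known. It holds 37 of the 49568 genes in the deposited values of a sciatic nerve study, and all 37 were found. Of these, 14 are known from fast fibres, 8 from slow fibres and 15 from both. Sciatic nerves came from male C57BL/6J mice of 8 groups, 1 library per mouse and 53 libraries in all. At 16 weeks of age there were 5 mice on standard diet (SD16), 7 on high-fat diet (HFD16) and 5 on high-fat diet with streptozotocin (HFD-STZ16), and at 24 weeks there were 8, 7 and 8 mice of the same kinds (SD24, HFD24, HFD-STZ24). A further 7 and 6 mice aged 24 weeks had been returned from the high-fat diet to a low-fat one (dietary reversal: HFD-DR24 and HFD-STZ-DR24). The high-fat diet gave 60% of energy as fat and began at 5 weeks of age. Streptozotocin, a toxin of insulin-producing cells, was injected at 12 weeks, first at 75 and 3 days later at 50 mg/kg, and dietary reversal meant 8 weeks on the control diet, from 16 weeks on. The values are polyA RNA levels on a log2 scale, normalized between samples by the authors and taken here not to be per gene length, and the number of reads behind each gene is unknown.

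Muscle fibres contract when myosin of the thick filaments pulls on actin of the thin filaments, and troponin on the thin filaments sets this going when calcium leaves the sarcoplasmic reticulum. Fast and slow fibres use different genes for many of these proteins, so their balance tells fibre types apart. A sciatic nerve runs between muscles of the thigh, has no muscle fibres in its own fascicles, and its most abundant transcripts come from myelinating Schwann cells.

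The labelled tissue fits its defining markers: the myelin genes Pmp22 and Mbp had mean log2 values of 20.18 and 19.91 over the 53 samples. Muscle genes were measured beside them in every sample, but at levels that differed widely between samples. Acta1, the actin of skeletal muscle thin filaments, ranged from 7.34 in HFD-STZ-DR24 replicate 2 to 18.49 in SD24 replicate 5, with a mean of 11.97 and an SD of 3.17. Members took from 0.0324% to 5.81% of the summed linear values of a sample, not counting genes with a value above 22, with a median of 0.0577%. The 3 highest shares were 5.81% in SD24 replicate 5, 4.72% in HFD-STZ-DR24 replicate 4 and 3.10% in HFD-DR24 replicate 5. In such bulk samples, fewer cells of a type and less RNA per cell cannot be told apart.

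Of the 37 members, 36 had a mean log2 value of at least 3.32, the filter on low values, and Tnnc2 did not. The spread of these 36, chosen with earlier results of these data known, was among the widest of all genes measured. Their median SD over the 53 samples was 2.76, against 0.27 for the 18069 genes that passed the filter. Of these 18069 genes, 94 (0.520%) had an SD above 2, and 31 of those 94 were members. Among these 18069 genes, which leave out 25 genes with a value above 22, the SD of Myh7, the myosin heavy chain of slow fibres, was the largest, followed by those of Myh4 (fast myosin heavy chain), Myl3 (slow light chain), Mb (myoglobin), Atp2a1 (fast calcium pump), Ckm (muscle creatine kinase), Myh2 (fast myosin heavy chain) and Acta1. The spread lay mostly inside groups: the median within-group SD of the 36 members was 2.62, against 0.26 for all genes tested, and group means accounted for a median of 21.3% of a member's sum of squares, against 15.8% over all genes tested.

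**Figure D1:**
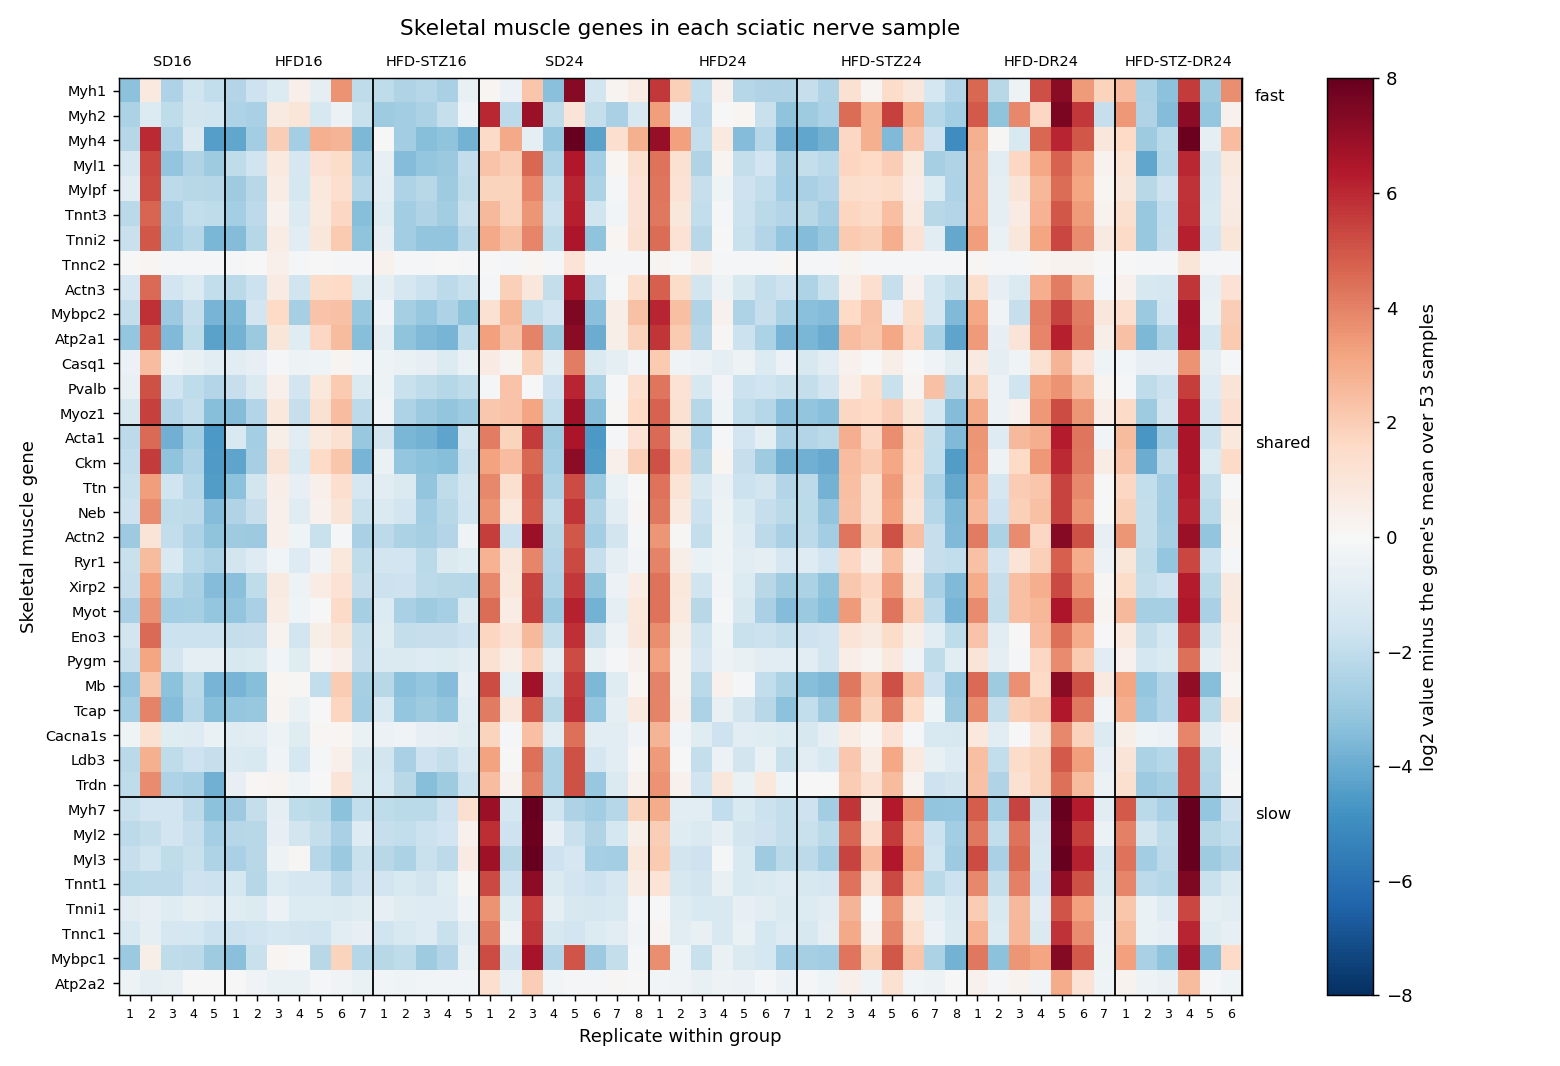
Log2 value of each of the 37 members minus its mean over 53 samples, one column per sample in 8 groups, one line per gene with fast, shared and slow fibre genes apart (red higher, blue lower). Columns are mostly red or mostly blue from top to bottom, slow genes part from fast ones in SD24 replicate 5 (fast level 5.91, slow level -0.64), and Tnnc2 stays pale, with a highest value of 1.21.

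The starts of 4 members as RefSeq places them, 2 shared, 1 fast and 1 slow, are shown because the members moved together between samples while fast and slow genes parted. The RefSeq table (build GRCm38.p6) has 35 promoter windows for 28 of the 37 members, each from 250 bases before to 50 bases after a gene's start. The 6 letters CAGCTG, an E-box of the kind that myogenic factors such as MyoD are known to bind, were found on either strand in 17 of the 35 windows (48.6%), against 16.3% of the 32851 windows of all genes. Counted by gene, 14 of the 28 members had CAGCTG in 1 or more windows. Windows of 1 gene can overlap, as in Tnni1, Mb and Ldb3, so the 35 windows are not independent. The looser E-box CANNTG, which includes CAGCTG, was in 82.9% of members' windows and 72.3% of all. CATTCC, the motif of TEAD factors, was in 31.4% against 14.7%, and TATAAA in 20% against 13.6%. The MEF2 motif was in 14.3% against 3.2%, and the CArG box bound by serum response factor in 14.3% against 1.6%. A match describes the letters of a window and shows no binding. In the sequences below, read 5′ to 3′ on the gene's strand, capitals mark matches of the E-box CAGCTG, the TEAD motif CATTCC, the TATA box TATAAA, MEF2 and CArG on either strand, and a TATAAA in Myh4 overlaps its MEF2 match. They are the first windows listed for Acta1 (chr8:123894726-123895025, minus strand), Ckm (chr7:19410844-19411143, plus strand), Myh4 (chr11:67237562-67237861, plus strand), and Myh7 (chr14:54994577-54994876, minus strand).
Acta1: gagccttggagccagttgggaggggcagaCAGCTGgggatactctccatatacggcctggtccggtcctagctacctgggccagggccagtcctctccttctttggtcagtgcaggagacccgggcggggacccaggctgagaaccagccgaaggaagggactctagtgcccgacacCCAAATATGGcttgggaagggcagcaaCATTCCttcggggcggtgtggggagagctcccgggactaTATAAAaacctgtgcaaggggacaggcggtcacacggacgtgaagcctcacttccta
Ckm: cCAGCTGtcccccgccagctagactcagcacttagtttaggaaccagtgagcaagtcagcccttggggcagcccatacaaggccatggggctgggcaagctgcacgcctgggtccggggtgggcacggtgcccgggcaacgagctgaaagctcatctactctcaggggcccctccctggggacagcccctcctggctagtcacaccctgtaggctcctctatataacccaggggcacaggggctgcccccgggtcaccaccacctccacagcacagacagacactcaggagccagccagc
Myh4: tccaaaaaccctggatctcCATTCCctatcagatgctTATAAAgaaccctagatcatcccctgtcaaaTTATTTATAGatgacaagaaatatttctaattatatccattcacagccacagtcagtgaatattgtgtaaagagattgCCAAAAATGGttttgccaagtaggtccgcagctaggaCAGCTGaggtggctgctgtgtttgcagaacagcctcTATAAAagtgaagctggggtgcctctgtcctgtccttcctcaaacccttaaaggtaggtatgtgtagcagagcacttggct
Myh7: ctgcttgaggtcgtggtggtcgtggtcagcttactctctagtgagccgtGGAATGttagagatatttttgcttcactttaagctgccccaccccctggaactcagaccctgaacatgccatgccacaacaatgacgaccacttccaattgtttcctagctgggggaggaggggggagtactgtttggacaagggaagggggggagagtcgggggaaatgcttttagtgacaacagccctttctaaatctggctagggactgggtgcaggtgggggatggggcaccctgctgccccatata

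The Acta1 window holds a CAGCTG, a CArG box, a CATTCC and a TATAAA, and the Myh4 window, as RefSeq places it, holds all 5 motifs. The Myh7 window shown holds CATTCC alone, written there as its reverse complement. A second window of Myh7 holds none of the 5 motifs. The windows of Myl2, counted in the shares, lie outside the gene as GENCODE M21 places it and are not shown. The Myh4 window, which is shown, also lies outside its gene there. It ends at 67237861, before the GENCODE M21 start of Myh4 at 67238029. The other 9 members have no entry in the table.

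Thick filaments are built from myosin heavy chains, each with an essential and a regulatory light chain, and are strapped by myosin-binding protein C. Myh4, the heavy chain of the fastest fibres, had log2 values of 7.89, 16.12, 7.68, 8.98 and 5.75 in SD16 replicates 1 to 5. The lowest, median and highest values were 6.00, 7.41 and 12.98 in HFD16. The HFD-STZ16 values were 10.18, 7.40, 6.75, 6.93 and 6.40. Replicate 2 of SD16 thus stood far above its 4 group mates, and its value was within the upper range at 24 weeks. There, the lowest, median and highest values of Myh4 were 5.87, 11.58 and 19.97 in SD24, 6.21, 8.25 and 17.15 in HFD24, and 5.20, 7.56 and 13.01 in HFD-STZ24. They were 8.93, 13.02 and 16.23 in HFD-DR24, and 7.29, 10.57 and 18.02 in HFD-STZ-DR24. All 8 groups overlapped in Myh4.

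Myh7, the heavy chain of slow fibres, was low at 16 weeks apart from HFD-STZ16 replicate 5. Its values were 4.86, 5.14, 5.10, 4.54 and 3.39 in SD16 and 4.65, 4.50, 4.49, 4.99 and 7.94 in HFD-STZ16, and its lowest, median and highest values were 3.37, 4.62 and 5.88 in HFD16. SD16 replicate 2, with Myh4 at 16.12, had Myh7 at 5.14. At 24 weeks, Myh7 spread widely, with lowest, median and highest values of 3.87, 5.17 and 16.12 in SD24, 4.66, 5.44 and 9.61 in HFD24, and 3.52, 6.08 and 13.03 in HFD-STZ24. After dietary reversal they were 3.92, 11.49 and 15.10 in HFD-DR24 and 3.60, 4.74 and 16.22 in HFD-STZ-DR24. Values of 8 or more were found in 13 of the 36 samples at 24 weeks and in 0 of the 17 at 16 weeks, where the highest was 7.94 in HFD-STZ16 replicate 5. The level of 8 was chosen after the values were seen, and the lowest value above it was close, at 8.42 in SD24 replicate 8. The widest gap between neighbouring values, 1.57, lies higher, above 13.53, with 3 samples above the gap. The part of age in these counts was not tested apart from the 24-week diets.

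Myh2 and Myh1, the heavy chains of the other fast fibres, lie side by side with Myh4 on chromosome 11. Myh2 ranged from 4.62 to 15.59 and Myh1 from 4.08 to 14.68. Myh2 is known from the more oxidative fast fibres, and its r with Myh7 over the 53 samples was 0.919, against 0.538 with Myh4. Myh1 had its highest value, like Myh4, in SD24 replicate 5, while Myh2 had its highest in HFD-DR24 replicate 5. These genes share sequence: of the stretches of 100 bases in Myh1, 9.73% occur in another gene, mostly Myh2, against 9.17% for Myh2, 3.85% for Myh4 and 11.2% for Myh7, whose shared stretches are all in Myh6.

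Fast and slow light chains were highest in different samples. Myl1 and Mylpf, the fast essential and regulatory chains, ranged from 6.06 to 16.58 and from 5.97 to 14.92, and both were highest in SD24 replicate 5. Myl3 and Myl2, their slow counterparts, ranged from 3.07 to 15.64 and from 2.81 to 14.04, and were highest in HFD-DR24 replicate 5 and in HFD-STZ-DR24 replicate 4. Myosin-binding protein C of fast fibres, Mybpc2, ranged from 4.05 to 15.21, and Mybpc1, the slow form, from 4.02 to 15.15. Mybpc1 followed the other members (r of 0.951 with their mean) more closely than the other slow genes did, whose r was 0.686 for Atp2a2 and 0.809 or below for the rest.

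Thin filaments carry actin, troponin and nebulin. Acta1 had values of 9.89, 16.48, 8.13, 9.25 and 7.40 in SD16 and 10.53, 8.32, 8.18, 7.73 and 10.50 in HFD-STZ16, and lowest, median and highest values of 8.95, 11.12 and 13.21 in HFD16. At 24 weeks these were 7.38, 13.44 and 18.49 in SD24, 9.40, 11.25 and 16.48 in HFD24, and 8.44, 11.85 and 15.70 in HFD-STZ24. After reversal they were 10.91, 14.88 and 18.26 in HFD-DR24, and 7.34, 11.53 and 18.49 in HFD-STZ-DR24. The groups overlapped, and the highest mouse of SD24, at 18.49, was matched by the highest of HFD-STZ-DR24. Neb, the giant protein laid along the thin filament, ranged from 6.23 to 15.99 and had an r of 0.988 with the mean of the other members.

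Troponin T binds tropomyosin, troponin I holds back contraction and troponin C senses calcium. Fast Tnnt3 ranged from 7.75 to 17.43 and fast Tnni2 from 5.38 to 15.98, with SDs of 2.54 and 2.89. Slow Tnnt1 ranged from 4.98 to 14.72, slow Tnni1 from 7.25 to 14.11 and slow Tnnc1 from 6.39 to 14.25. These slow genes were at a floor in many samples: in SD16, Tnni1 was 7.71, 7.91, 7.60, 7.82 and 7.75, an SD of 0.12, while Tnni2 went up to 14.42 in replicate 2. Tnnc2, the troponin C of fast fibres, had a mean of 0.14 and a highest value of 1.21, in SD24 replicate 5, where its partners Tnnt3 and Tnni2 also had their highest values. Of its 800 exon bases, 592 (74.0%) lie in exons of Ube2c on the opposite strand, and the libraries were not stranded. Whether reads there were dropped as ambiguous was not tested, so how its value relates to the Tnnc2 RNA of the samples is unknown. The r of Tnnc2 with the mean of the other members was 0.624.

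Titin and the Z-disc hold filaments in place. Ttn, the molecular spring from Z-disc to thick filament, ranged from 6.21 to 17.05, and Tcap, the cap that ties it to the Z-disc, from 5.36 to 15.27. The alpha-actinins cross-link thin filaments: Actn2, found in all fibres, ranged from 4.53 to 15.36, and Actn3, of fast fibres, from 7.71 to 16.84. Actn3 was highest in SD24 replicate 5 and Actn2 in HFD-DR24 replicate 5. Myoz1 (a calcineurin-binding protein of fast fibres) ranged from 4.23 to 14.50, Myot (myotilin) from 4.02 to 14.29, Ldb3 (a PDZ and LIM domain protein) from 6.12 up with an SD of 2.18, and Xirp2 (an actin-binding repeat protein) from 3.78 to 13.56. Myot, Tcap, Xirp2 and Ttn were among the members closest to the rest, with r of 0.990, 0.986, 0.981 and 0.977 with the mean of the other members.

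Calcium handling starts at Cacna1s, the voltage sensor of the T-tubule, which opens Ryr1, the release channel of the sarcoplasmic reticulum, with Trdn as its anchor. Cacna1s ranged from 7.11 to 13.15, Ryr1 from 5.10 to 13.54 and Trdn from 4.38 to 13.51. Casq1, which stores calcium, had an SD of 1.17 and a lowest value of 9.60, and Cacna1s an SD of 1.38, and only Tnnc2 and Atp2a2 had smaller SDs than these. Atp2a1, the calcium pump of fast fibres, had a lowest value of 6.49 and an SD of 3.31. Atp2a2, the pump of slow fibres that most other cells also use, ranged from 12.72 to 16.48 with an SD of 0.75. Its lowest value was in SD16 replicate 2, where Atp2a1 was at 15.69, and its highest in HFD-DR24 replicate 5, where Myh7 was at 15.10. Pvalb, the calcium buffer of fast fibres, ranged from 6.35 to 14.95 and was at 11.18 in HFD-STZ24 replicate 7, where Myh4 was at 8.48. That library stood apart in neuron genes, with Prph at 14.55, Snap25 at 14.53 and Stmn2 at 14.32 against means of 8.80, 8.90 and 10.05.

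Energy and oxygen genes followed the filaments. Ckm ranged from 5.21 to 16.91, and its values in SD16 were 7.78, 15.32, 6.55, 7.28 and 5.21. Mb, the oxygen store of muscle, ranged from 4.40 to 15.37, and was highest in HFD-DR24 replicate 5 and second to it in HFD-STZ-DR24 replicate 4 at 15.25. Eno3 (muscle enolase) ranged from 8.16 to 16.04 and Pygm (muscle glycogen phosphorylase) from 9.49 to 16.76, both highest in SD24 replicate 5. Exons of Mb and Atp2a1 overlap those of other genes on the opposite strand over 31.9% and 21.9% of their bases, and those of Cacna1s over about 20%. With Tnnc2, 18 of the 37 members have some such overlap.

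A muscle level was formed for each sample as the mean over the 37 members of the log2 value minus the gene's mean, so that 0 is the average sample, and fast, slow and shared levels likewise. The muscle level ran from -2.60 in SD16 replicate 5 to 6.04 in HFD-STZ-DR24 replicate 4, and 22 of 53 samples were above 0. The values in SD16 were -1.79, 2.56, -2.06, -1.79 and -2.60, and in HFD-STZ16 they were -1.14, -2.07, -2.24, -2.20 and -1.19. In HFD16 the lowest, median and highest were -2.32, -0.93 and 0.76. All mice at 16 weeks but SD16 replicate 2 were thus near or below the average sample. At 24 weeks, the lowest, median and highest levels were -2.43, 0.59 and 4.36 in SD24, -2.14, -1.29 and 3.57 in HFD24, and -2.59, -0.11 and 2.65 in HFD-STZ24. They were -1.36, 1.88 and 5.50 in HFD-DR24 and -2.23, -0.64 and 6.04 in HFD-STZ-DR24. Every 24-week group held samples on both sides of 0.

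Group means of the muscle level were -1.14 ± 2.09 (SD, n = 5) in SD16, -0.88 ± 1.20 (n = 7) in HFD16 and -1.77 ± 0.55 (n = 5) in HFD-STZ16. At 24 weeks they were 0.98 ± 2.63 (n = 8) in SD24, -0.41 ± 1.97 (n = 7) in HFD24, -0.10 ± 2.20 (n = 8) in HFD-STZ24, 2.00 ± 2.31 (n = 7) in HFD-DR24 and 0.41 ± 3.20 (n = 6) in HFD-STZ-DR24. In order, HFD-STZ16 was lowest and HFD-DR24 highest, and differences of the level between groups were not tested. Without SD16 replicate 2 the SD16 mean was -2.06, lower than that of HFD-STZ16. With 1 mouse left out, the mean ran from -0.72 (without replicate 4) to 0.93 (replicate 2) in HFD-STZ-DR24, from -1.07 (replicate 1) to -0.12 (replicate 7) in HFD24, from -0.50 (replicate 5) to 0.25 (replicate 8) in HFD-STZ24 and from 0.50 (replicate 5) to 1.47 (replicate 6) in SD24. Groups accounted for 23.2% of the sum of squares of the muscle level, and 8 runs of consecutive library numbers for 22.9%. The fifth run had the highest mean, 1.90 ± 3.13 (SD, n = 8), and the eighth the lowest, -1.35 ± 1.77 (n = 3). What these runs were is not stated, and their part in the levels was not tested.

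**Figure D2:**
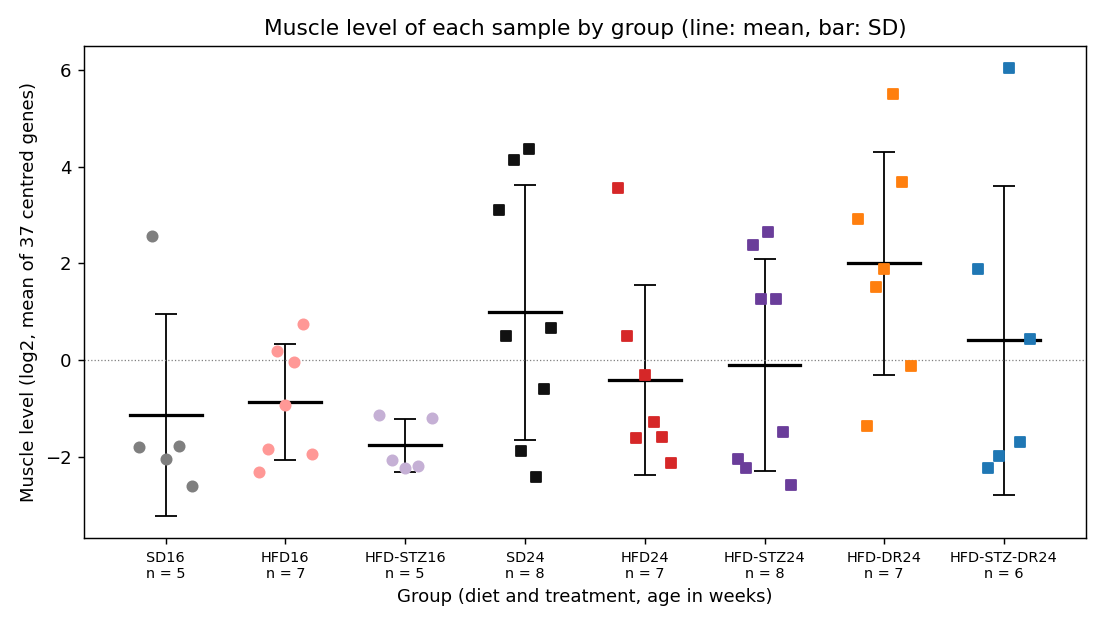
Muscle level of each sample (points; log2, mean of 37 centred genes) by group, with the group mean (line) and SD (bar). Within SD24 the samples span -2.43 to 4.36 and within HFD-STZ-DR24 -2.23 to 6.04, while HFD-STZ16 spans -2.24 to -1.14.

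Fast and slow genes did not keep a fixed ratio. SD24 replicate 5 had a fast level of 5.91 and a slow level of -0.64, with Myh4 at 19.97 and Myh7 at 4.18. SD24 replicate 3, of the same group, had a fast level of 2.32 and a slow level of 6.55, with Myh4 at 9.43 and Myh7 at 16.12. These are the highest and lowest fast minus slow values of the 53 samples, 6.55 and -4.23. SD16 replicate 2 (4.99), HFD-DR24 replicate 4 (3.61), HFD16 replicate 6 (3.12) and HFD24 replicate 1 (2.91) came next on the fast side. HFD-STZ24 replicate 5 (-3.72), HFD-DR24 replicate 3 (-3.22) and SD24 replicate 1 (-3.14) came next on the slow side. HFD-STZ-DR24 replicate 4 and HFD-DR24 replicate 5 were high in both, with fast levels of 5.71 and 4.85 and slow levels of 6.94 and 6.74.

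**Figure D3:**
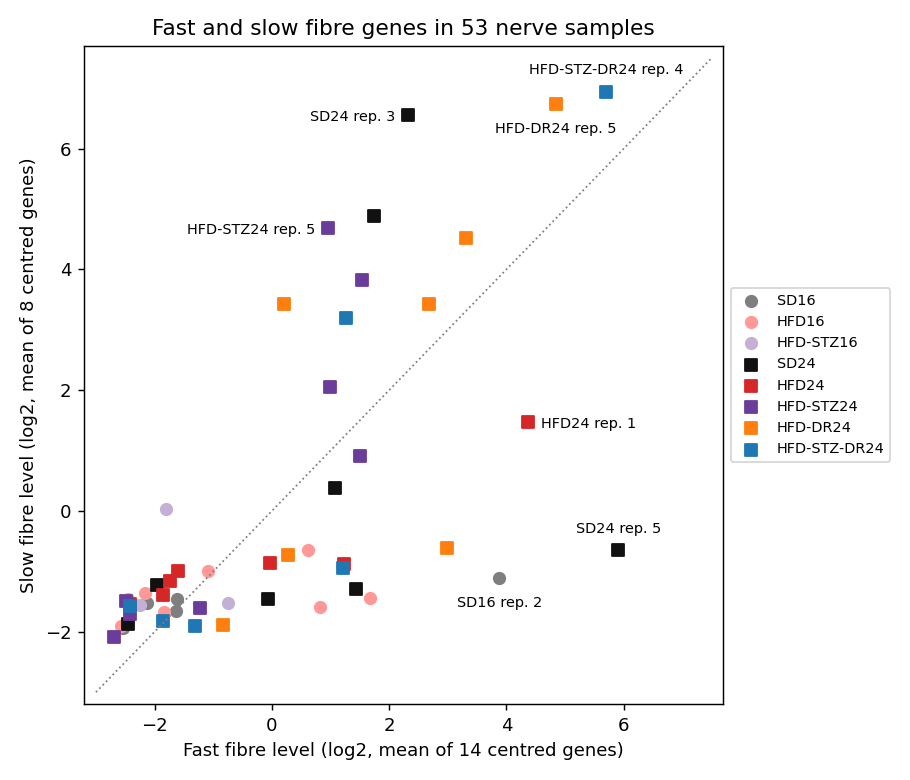
Slow fibre level (8 genes) against fast fibre level (14 genes) of each sample, both log2 and centred on 0, with circles for 16 weeks, squares for 24 weeks and a dotted line where the levels are equal. SD24 replicate 5 lies far right of the line (5.91, -0.64), SD24 replicate 3 far above it (2.32, 6.55), and no sample at 16 weeks has a slow level above 0.04.

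Group means of fast minus slow were close: 0.73 ± 2.40 (SD, n = 5) in SD16, 0.73 ± 1.56 (n = 7) in HFD16 and -0.72 ± 0.95 (n = 5) in HFD-STZ16 at 16 weeks. At 24 weeks they were 0.33 ± 3.39 (n = 8) in SD24, 0.48 ± 1.51 (n = 7) in HFD24, -1.05 ± 1.40 (n = 8) in HFD-STZ24, -0.20 ± 2.27 (n = 7) in HFD-DR24 and -0.22 ± 1.46 (n = 6) in HFD-STZ-DR24. Groups accounted for 9.86% of its sum of squares and runs of library numbers for 7.84%. Both directions occurred inside single groups, as SD24 replicates 3 and 5 show. The highest slow level was 0.04 at 16 weeks and 6.94 at 24 weeks, and the highest fast level 3.88 and 5.91.

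Per length, the 4 heavy chains can be set side by side within a sample. Myh4 made up 97.6% of their sum in SD24 replicate 5 and 99.4% in SD16 replicate 2. Myh7 made up 63.4% and Myh2 34.8% in SD24 replicate 3, where Myh4 made up 0.882%. In HFD-STZ24 replicate 5 the shares were 61.4% for Myh2, 35.3% for Myh7 and 0.600% for Myh4. The 2 samples high in both levels were mixed: HFD-STZ-DR24 replicate 4 had 74.0% Myh4 and 14.8% Myh7, and HFD-DR24 replicate 5 had 46.0% Myh4, 24.9% Myh2, 14.6% Myh7 and 14.5% Myh1. High muscle levels thus came with quite different heavy chains.

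**Figure D4:**
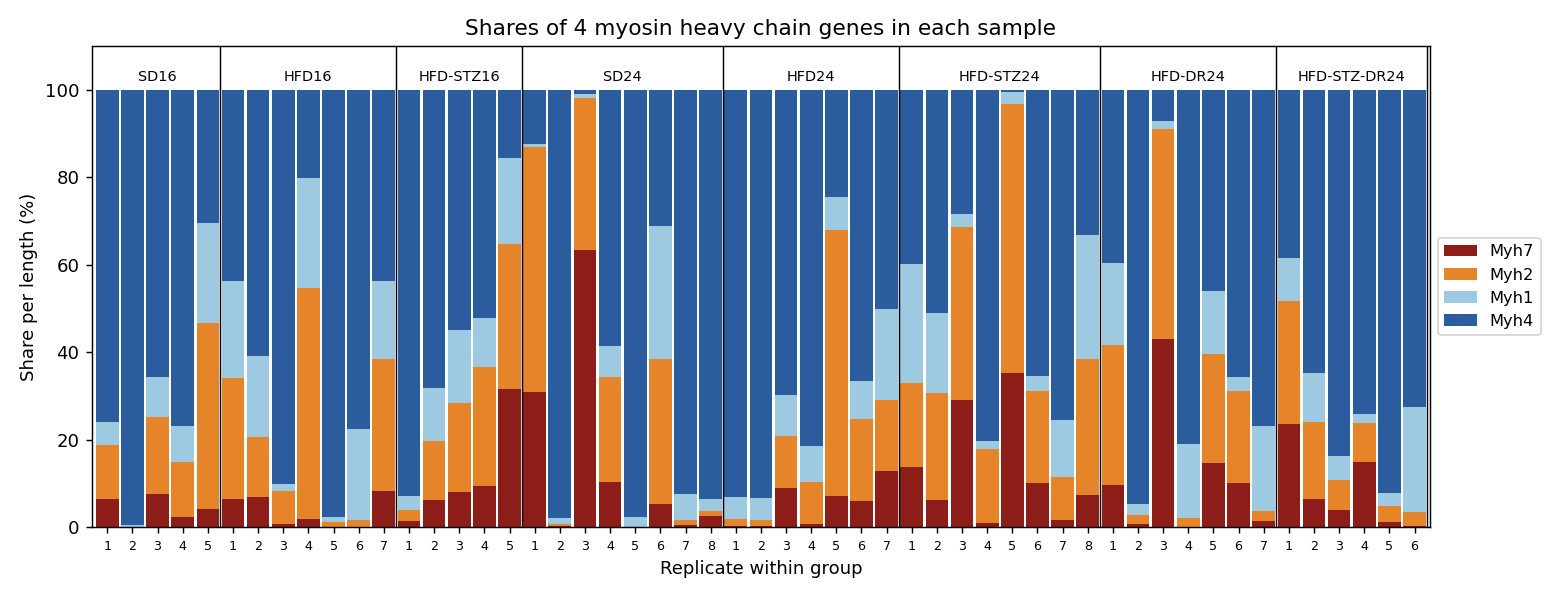
Share of Myh7, Myh2, Myh1 and Myh4 in the sum of their linear values per length, one bar per sample in 8 groups. Myh4 reaches 99.4% in SD16 replicate 2, and Myh7 with Myh2 nearly fill the bars of SD24 replicate 3 (63.4% and 34.8%) and HFD-STZ24 replicate 5 (35.3% and 61.4%).

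Matched pairs of fast and slow genes were compared on the log2 scale per length, and not all had their extremes in the same samples. Myh4 minus Myh7 ran from -6.17 in SD24 replicate 3 to 16.32 in SD24 replicate 5 and was above 0 in 47 of 53 samples. Mylpf was above Myl2 in 52 samples, Myl1 above Myl3 in 50, Tnnt3 above Tnnt1 in 53 and Tnni2 above Tnni1 in 46. SD24 replicate 5 held the highest difference in each of these 5 pairs, and SD24 replicate 3 the lowest in Myh4 against Myh7 and in Tnnt3 against Tnnt1 (0.77). The lowest difference of Tnni2 from Tnni1, -0.68, was in HFD-STZ24 replicate 8. Mybpc2 was above Mybpc1 in 30 samples, with a difference from -8.19 in SD24 replicate 3 to 5.66 in SD16 replicate 2. Atp2a1 was above Atp2a2 in 17 samples, with its lowest difference, -6.25, in SD16 replicate 5, and Tnnc2 above Tnnc1 in 0, with the overlap of Tnnc2 given above.

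Over the 53 samples the members moved together. The median Pearson r over all 666 pairs of members was 0.850, with a lowest value of 0.304, and 403 pairs were above 0.8. The 105 pairs of shared genes had a median r of 0.940, and all 105 were above 0.8. Pairs of slow genes had a median of 0.959 and pairs of fast genes 0.884, while fast with slow pairs had 0.578. Shared genes were nearer to fast genes (0.866) than to slow ones (0.742). After centring on group means these medians were 0.937, 0.958, 0.871 and 0.535 for shared, slow, fast and fast with slow pairs, and after centring on runs of library numbers 0.930, 0.957, 0.881 and 0.525. On ranks the order differed, with 0.890 for shared, 0.834 for fast, 0.684 for slow and 0.50 for fast with slow pairs. Sample values share their library and normalization, so these r describe the set and carry no test.

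Gene pairs fixed by role were tested with 2-sided permutation p-values over 100000 resamples, where 1e-05 is the smallest they can give. The p-values were adjusted over 8 pairs, of which 7 are given here. Members were chosen with earlier results of these data known, so p-values for pairs of members are not independent support for their moving together. Acta1 and Ckm had r = 0.966 and rho = 0.946, each with p = 1e-05 (adjusted p = 2.67e-05 and 4e-05), and r = 0.959 without HFD-STZ-DR24 replicate 4 and SD24 replicate 5, the 2 samples farthest from the median of Acta1. Within the 6 groups of 6 or more mice this r was 0.893 to 0.997, and within 6 runs of library numbers 0.923 to 0.992. Acta1 and Myh4 had r = 0.828 and rho = 0.80, each with p = 1e-05, and r = 0.791 without the same 2 samples (0.623 to 0.969 within groups, 0.474 to 0.953 within runs). Acta1 and Myh7 had r = 0.733 (p = 1e-05) and rho = 0.62 (p = 2e-05), and r = 0.774 without the 2 samples (-0.133 to 0.947 within groups, 0.308 to 0.970 within runs). Shared actin thus followed both fibre types.

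Myh4 and Myh7 were less closely tied, with r = 0.405 (permutation p = 0.0027, adjusted p = 0.00432), rho = 0.436 (p = 0.00139, adjusted p = 0.00222) and r = 0.407 without HFD-STZ-DR24 replicate 4 and SD24 replicate 5. After centring, r was 0.326 (permutation p = 0.0332, adjusted p = 0.0532) on group means and 0.346 (permutation p = 0.0346, adjusted p = 0.0553) on runs, no longer past the threshold after adjustment, and it ran from -0.112 to 0.858 within groups and from -0.306 to 0.858 within runs. Myh4 and Myh2 had r = 0.538 and rho = 0.548, each with p = 5e-05 and adjusted p = 0.0001, r = 0.511 without the 2 samples, 0.481 after centring on groups and 0.488 on runs (0.086 to 0.925 within groups, -0.200 to 0.841 within runs). Whether the r of Myh4 with Myh7 differs from that with Myh2 was not tested.

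Acta1 was also set against genes of other tissues. With Adipoq, an adipocyte hormone, r was 0.130 and rho 0.136 (permutation p = 0.354 and 0.33, the same after adjustment), 0.147 without the 2 samples, and -0.601 to 0.815 within groups and -0.419 to 0.513 within runs. With Myh11, the smooth muscle myosin, r was 0.313 (adjusted p = 0.0308) and rho 0.242 (adjusted p = 0.0928), and r was 0.162 (adjusted p = 0.291) without the 2 samples. It ran from -0.338 to 0.853 within groups and from -0.400 to 0.666 within runs. It was also not past the threshold after centring on groups (r = 0.285, adjusted p = 0.104) or on runs (r = 0.201, adjusted p = 0.214).

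Outside the members, 92 of 18033 genes had r above 0.9 with the muscle level and 177 above 0.8, against a median r of -0.02 over all of them. The 15 highest were Art1 (0.987), Ckmt2, Cox6a2, Trim54, Fitm1, Apobec2, Rpl3l, Hfe2, Smpx, Txlnb, Klhl41, Abra, Asb11, Klhl31 and Sypl2 (0.972), and 10 of these are on a list of 60 other skeletal muscle genes. Ckmt2 is the mitochondrial creatine kinase of striated muscle, Cox6a2 its cytochrome oxidase subunit and Rpl3l its ribosomal protein. The 5 lowest were Stxbp2 (-0.634), Zmynd8 (-0.603), Gne (-0.585), H2afy2 (-0.574) and Zscan22 (-0.571), all with SDs of 0.19 or less. Of the other skeletal muscle list, 59 genes are in the values, 52 had r above 0.8, the median was 0.942 and the lowest 0.156 (Casq2, the calsequestrin of slow and heart muscle). Its most abundant gene was Tpm1 (mean 14.36), and its summed level ran from 14.24 to 19.25.

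Markers of other muscle lineages were set beside the members, with list members chosen for cell types. Of 7 heart markers, 3 passed the filter, the median r of the 7 with the muscle level was -0.04, and the heart hormone Nppa had a mean of 1.27, with 61.5% of its exon bases in exons of a gene on the opposite strand. Tnni3 was the most abundant (7.24), and the summed level ran from 8.05 to 9.89. Of 7 genes of satellite cells and myogenic factors in the values, 2 passed. Pax7, the satellite cell factor, had a mean of 2.35 and an r of 0.317, while Myf6, the myogenic factor of mature fibres, had a mean of 4.83 and an r of 0.971, and Myod1 a mean of 2.95 and an r of 0.896 (summed level 4.82 to 11.37). Of 5 developmental genes, 4 passed, with Myl4 (6.55) the most abundant, a median r of 0.490 over the 5 and a summed level of 6.33 to 12.14. Actc1, the actin of heart and developing muscle, was at 12.11 in SD16 replicate 2, 11.65 in HFD-STZ-DR24 replicate 4 and 11.09 in SD24 replicate 5, and Myh3, the embryonic heavy chain, at 9.10 in SD24 replicate 3 against a mean of 3.67. Of 9 genes of the neuromuscular junction, 7 passed, with a summed level of 11.80 to 12.81 and a median r of 0.604 over the 9 (highest Chrna1, a subunit of the acetylcholine receptor, at 0.826) and Rapsn (mean 11.49) as the most abundant. All 9 smooth muscle genes passed, with Smtn (14.70) the most abundant, a summed level of 14.91 to 17.30 and a median r of 0.362, and Des, desmin, which skeletal muscle also expresses, had 0.934.

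Markers of nerve, fat, vessels and blood did not follow the muscle level closely. The median r was -0.28 for 12 myelinating Schwann cell genes (lowest Drp2, -0.46), -0.33 for 6 genes of non-myelinating Schwann cells (most abundant Scn7a, 14.53), 0.14 for 12 adipocyte genes (most abundant Cfd, mean 14.07) and -0.21 for 10 genes of fibroblasts and perineurial cells (Dcn, 17.69). It was 0.06 for 7 endothelial genes (Vwf, 12.92), -0.10 for 8 macrophage genes (Lyz2, 14.21), 0.19 for 5 blood genes (Hbb-bs, 11.47) and -0.22 to -0.08 for the 4 neuron genes with no value above 22. All genes of these lists passed the filter and the limit of 22 except 3 neuron genes, Nefl, Nefm and Tubb3, whose values in HFD-STZ24 replicate 7 were above 22. Summed levels ran from 21.26 to 22.40 for myelinating Schwann cells from 14.73 to 15.65 for non-myelinating ones, from 12.61 to 18.11 for adipocytes and up to 19.45 for fibroblasts and perineurial cells. They ran from 14.24 up for endothelium, from 14.45 to 16.42 for macrophages, from 9.29 to 15.61 for blood and from 11.04 to 16.63 for neurons. What these cells contribute to the members' values was not tested.

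Each of 7 comparisons asked whether members differ between groups, with limma on the samples of both groups and p-values adjusted over all genes tested. None of the 36 members tested had an adjusted p-value under 0.05 in any of them, and the count at an unadjusted p under 0.05 is given with each. The standard error of a member's difference was large: its median over members was 1.02 to 1.55 by comparison, against 0.14 to 0.15 over all genes.

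**Figure D5:**
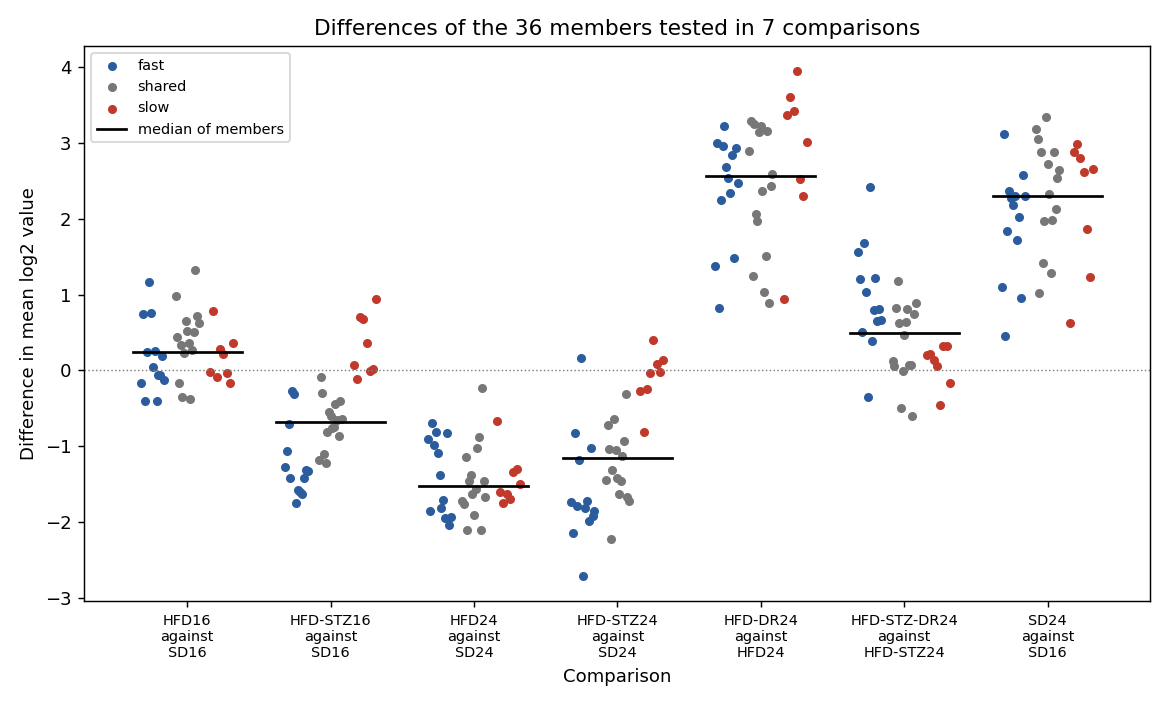
Difference in mean log2 value (first group minus second) of each of the 36 members tested in 7 comparisons, coloured by fibre type, with the median of the members as a line. Medians run from -1.53 in HFD24 against SD24 to 2.56 in HFD-DR24 against HFD24, and all 36 members are above 0 in HFD-DR24 against HFD24 and in SD24 against SD16.

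High-fat diet at 16 weeks was compared in HFD16 (n = 7) against SD16 (n = 5). Acta1 had means of 11.21 ± 1.69 and 10.23 ± 3.63 (SD), a difference of 0.98. Myh4 had 9.33 ± 3.16 and 9.28 ± 3.99, and Myh7 4.51 ± 0.80 and 4.61 ± 0.72. Of the 36 members 23 were higher and 13 lower in HFD16, with a median difference of 0.25 against 0.01 for all genes, from -0.41 for Casq1 (SE 0.46) to 1.32 for Trdn (SE 1.00). In the limma fit, 0 of 36 members were called, against 0.00557% of the 17962 genes tested, and 0 had an unadjusted p under 0.05, against 8.55%. The smallest adjusted p of a member was 0.645. SD16 replicate 2 decides much of this: without it the median was 1.27 and 10 members had an unadjusted p under 0.05, still with 0 called, and without SD16 replicate 5 the median was -0.12. With all 8 groups in 1 fit and runs of library numbers as a covariate, the median was 0.62 and 0 members had an unadjusted p under 0.05. Adipocyte genes were higher in 12 of 12 cases (median 2.06, 8 at an unadjusted p under 0.05), blood genes higher in 5 of 5 (2.77, all 5) and myelinating Schwann cell genes lower in 11 of 12 (-0.19, 2), with 0 called.

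Streptozotocin with high-fat diet at 16 weeks was compared in HFD-STZ16 (n = 5) against SD16 (n = 5), which HFD16 also uses as its controls. Fast and shared members were lower in HFD-STZ16, 13 of 13 and 15 of 15, while 6 of 8 slow members were higher. Single mice stood apart in both levels. The fast level was 3.88 in SD16 replicate 2, -2.54 to -1.63 in its group mates and -2.45 to -0.74 in HFD-STZ16. The slow level was 0.04 in HFD-STZ16 replicate 5, -1.56 to -1.45 in its group mates and -1.95 to -1.12 in SD16. A difference between fast and slow members here was not tested. Myh4 had means of 7.53 ± 1.52 and 9.28 ± 3.99, a difference of -1.75 (SE 1.59), the most negative of the members. Tnnt1 had 6.25 ± 0.65 and 5.31 ± 0.23, and its difference of 0.95 (SE 0.28, adjusted p = 0.544) was the most positive. By limma, 0 of 36 members were called, against 0% of 17879 genes tested, and 1, Tnnt1, had an unadjusted p under 0.05, against 8.41%. The median difference of -0.68 (all genes 0.02) became 0.31 without SD16 replicate 2 and -1.08 without SD16 replicate 5. Adipocyte genes were higher in 11 of 11 cases (median 0.79, 2 at an unadjusted p under 0.05) and blood genes in 5 of 5 (1.23, 3), with 0 called.

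High-fat diet at 24 weeks was compared in HFD24 (n = 7) against SD24 (n = 8). All 36 members were lower in HFD24, with a median difference of -1.53 against 0.01 for all genes. Acta1 had means of 11.69 ± 2.47 and 13.42 ± 3.92, Myh4 10.08 ± 4.01 and 11.47 ± 4.35, and Myh7 5.85 ± 1.72 and 7.60 ± 4.73. Tcap, at -2.11 (SE 1.37, adjusted p = 0.649), was the most negative of all genes tested, and Trdn, at -0.23, the least negative member. The limma fit called 0 of 36 members, against 0.121% of 18191 genes tested, and 1, Atp2a2 (-0.66, SE 0.30, adjusted p = 0.538), had an unadjusted p under 0.05, against 9.05%. The median was -0.90 without SD24 replicate 3 and -2.22 without HFD24 replicate 1, which left 8 members with an unadjusted p under 0.05 and 0 called. No member was counted without SD24 replicate 1 or 3, or HFD24 replicate 2, 3, 4, 5 or 7. Adipocyte genes were higher in 9 of 12 cases (median 0.78, at an unadjusted p under 0.05 for 4 higher and 1 lower), macrophage genes in 8 of 8 (0.25, 1) and blood genes in 5 of 5 (0.81, 0), with 0 called.

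Streptozotocin with high-fat diet at 24 weeks was compared in HFD-STZ24 (n = 8) against the same SD24 mice (n = 8). Fast members were lower in 12 of 13 cases and shared members in 15 of 15, while slow members were divided, 3 higher and 5 lower with a median of -0.03. Myh4 had means of 8.75 ± 3.20 and 11.47 ± 4.35, and its difference of -2.71 (SE 1.74, adjusted p = 0.832) was the most negative of all genes tested. Myh7 had 7.36 ± 4.01 and 7.60 ± 4.73, and Myl3, at 0.41 (SE 1.86), was the highest member. By limma, 0 of 36 members were called, against 0.0336% of 17846 genes tested, and 0 had an unadjusted p under 0.05, against 5.99%. The median difference of -1.16 (all genes 0.00) was -0.57 without SD24 replicate 5, and up to 4 members had an unadjusted p under 0.05 with 1 mouse left out (4 without SD24 replicate 6). Adipocyte genes were higher in 9 of 12 cases (median 0.48, 2 at an unadjusted p under 0.05) and genes of fibroblasts and perineurial cells lower in 10 of 10 (-0.37, 1), with 0 called. Neuron genes were higher in 4 of 4 (0.85, 0) and genes of non-myelinating Schwann cells in 6 of 6 (0.14, 0), also with 0 called. HFD-STZ24 replicate 7, which stood apart in neuron genes, is among the mice compared. Whether fast and slow members differ in this comparison was not tested.

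Dietary reversal after high-fat diet was compared in HFD-DR24 (n = 7) against HFD24 (n = 7). All 36 members were higher in HFD-DR24, by a median of 2.56 against 0.00 for all genes. Myh4 had means of 12.76 ± 2.76 and 10.08 ± 4.01, and 7 of 7 HFD-DR24 mice were above the HFD24 median. Acta1 had 14.59 ± 2.53 and 11.69 ± 2.47, with 6 of 7 above it, and Myh7 9.47 ± 4.46 and 5.85 ± 1.72, with 5 of 7. Slow members had the largest median difference, 3.19, against 2.54 for fast and 2.43 for shared ones. Myl3, at 3.95 (SE 1.64, adjusted p = 0.716), was the most positive of all genes tested, and Casq1, at 0.82 (SE 0.53), the lowest member.

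By limma, 0 of 36 members were called between HFD-DR24 and HFD24, against 0.0108% of 18475 genes tested, with a smallest adjusted p of 0.639 (Tnni1, difference 2.31, SE 0.82). At an unadjusted p under 0.05 there were 25 members, all higher, against 6.72% of all genes. They were 8 of 8 slow, 7 of 13 fast and 10 of 15 shared members. Since the members move together, these are not 25 independent results, and the count hangs on single mice. It was 7 without HFD-DR24 replicate 5 or replicate 6, 12 without HFD-DR24 replicate 1 and 15 without replicate 4. Without HFD24 replicate 3, 5, 6 or 7 it was 11, 13, 12 or 8, and without HFD24 replicate 1 it was 35. The median stayed between 2.09 and 3.33 throughout. With all 8 groups in 1 fit the count was 15, with runs of library numbers added to that fit as a covariate 13, and with robust empirical Bayes 14. Adipocyte genes were lower in 9 of 12 cases (median -1.09, at an unadjusted p under 0.05 for 6 lower and 1 higher) and macrophage genes in 8 of 8 (median -0.49, 3 of them so), with 0 called.

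The same reversal in mice given streptozotocin was compared in HFD-STZ-DR24 (n = 6) against HFD-STZ24 (n = 8). Of 36 members 30 were higher and 6 lower, by a median of 0.49 against 0.01 for all genes. Myh4 had means of 11.18 ± 3.95 and 8.75 ± 3.20, and its difference of 2.42 (SE 1.71, adjusted p = 0.923) was the most positive of all genes tested. Acta1 had 12.09 ± 4.05 and 11.97 ± 2.78, Myh7 7.49 ± 5.19 and 7.36 ± 4.01, and Trdn, at -0.60 (SE 1.14), was the lowest member. With limma, 0 of 36 members were called, against 0.084% of 17862 genes tested, and 0 had an unadjusted p under 0.05, against 6.48%. Without HFD-STZ-DR24 replicate 4, the mouse with the highest muscle level, the median was -0.51. It was 1.07 without HFD-STZ-DR24 replicate 2, the highest with 1 mouse left out, and 0.19 without HFD-STZ24 replicate 8. Adipocyte genes were lower in 12 of 12 cases (median -1.79, 10 at an unadjusted p under 0.05), endothelial genes in 7 of 7 (-0.19, 3) and macrophage genes in 8 of 8 (-0.28, 0), with 0 called. Neuron genes were lower in 4 of 4 (-0.70, 0), also with 0 called and with HFD-STZ24 replicate 7 among the mice compared. The difference between this reversal and that after high-fat diet alone was not tested.

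Age in mice on standard diet was compared in SD24 (n = 8) against SD16 (n = 5), mice that also serve as controls above. All 36 members were higher at 24 weeks, by a median of 2.30 against 0.01 for all genes. Acta1 had means of 13.42 ± 3.92 and 10.23 ± 3.63, Myh4 11.47 ± 4.35 and 9.28 ± 3.99, Myh2 8.60 ± 3.84 and 6.33 ± 0.57, and Myh7 7.60 ± 4.73 and 4.61 ± 0.72. Mb, at 3.34 (SE 1.72, adjusted p = 0.501), was the most positive of all genes tested, and Casq1, at 0.45 (SE 0.81), the lowest member. By limma, 0 of 36 members were called, against 0% of 17788 genes tested, and 0 had an unadjusted p under 0.05, against 10.5%. SD16 replicate 2 decides that count, which was 20 without it, and it was 7 without SD24 replicate 6 and 1 without SD24 replicate 4. With all 8 groups in 1 fit the count was 0, and with runs of library numbers added to that fit as a covariate 24, with 0 called. In other lists, also with 0 called, adipocyte genes were higher in 12 of 12 cases (median 1.66, 10 at an unadjusted p under 0.05) and blood genes in 5 of 5 (2.25, all 5), and myelinating Schwann cell genes lower in 12 of 12 (-0.29, 4).

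Of the 28 exact 2-sided permutation tests of Acta1, Myh4, Myh2 and Myh7 in the 7 comparisons, the smallest p-values were all from HFD-DR24 against HFD24. They were 0.0542 for Acta1 (difference 2.90), 0.0606 for Myh7 (3.61) and 0.081 for Myh2 (3.22), and after adjustment over the 28 tests all exact p-values were 0.756 or more.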

How the data were processed

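The deposited values are log2 values of 49568 genes in 53 libraries, 1 per mouse. Per the labels and paper, the authors aligned reads to GRCm38 with HISAT2 and counted them with featureCounts, and the submitters also name DESeq2. The authors name FPKM in the paper, which the deposited log2 values cannot be, since Pmp22 averages 20.18, above what FPKM allow a gene of 2.35 kb. How they were normalized is not stated, that they are not per length is inferred, and the labels and the paper name different library kits. Reads per gene are unknown, so the spread between mice stands for precision. Members and lists were chosen with earlier results of these data known.

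Groups were compared in 7 pairs with limma 3.58.1 (R 4.3.3; trend, pair samples alone, Benjamini-Hochberg over the genes tested, threshold 0.05). A filter removed genes averaging below 3.32 (log2 of 10), and the 25 genes that exceed 22 in some sample, none of them a member, were removed too. Exact and permutation tests used scipy 1.17.1, other values numpy 2.4.6 and pandas 2.3.3 in Python 3.11.15, figures matplotlib 3.10.9. Lengths and overlaps are from GENCODE M21, promoters from RefSeq.

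Named genes are the 37 members, in each comparison the members past the threshold and those with the most positive and most negative difference, the 15 genes outside the set with the highest and 5 with the lowest r with the muscle level, and list genes where a list is counted. Other genes and the values of single samples were chosen after their values were seen. Lists cover other skeletal muscle, developmental muscle, myogenic and satellite cells, neuromuscular junction, heart, smooth muscle, both Schwann cell kinds, adipocytes, fibroblasts and perineurium, endothelium, macrophages, blood and neurons. Alternatives were other filters, centring on sample medians, all 8 groups in 1 fit with and without runs of library numbers as a covariate, other variance priors and leaving out each mouse.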

Additional observations from a re-analysis of the deposited data

Results flagged for a closer look

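Single mice stood far from the rest of their group in 10 of 72 group and measure combinations, each time above their group mates. This was judged by the gap to the nearest mate as a share of the group's range. Chance would pass the limit on this share in about 1 in 20 groups only if values were normally distributed. The muscle level was skewed, with a lowest, median and highest value of -2.60, -0.93 and 6.04 over the 53 samples. The chance rate for such values is unknown. These combinations are not independent, since the measures share genes, and 5 of the 10 are the same mouse. SD16 replicate 2 had a muscle level of 2.56 (the other 4 mice -2.60 to -1.79), a fast level of 3.88, a shared level of 3.30, fast minus slow of 4.99 and Acta1 at 16.48 (the others 7.40 to 9.89). Its slow level, -1.12, was not set apart. HFD-STZ16 replicate 5 stood out on the slow side, with a slow level of 0.0405 (the others -1.56 to -1.45) and Myh7 at 7.94 (the others 4.49 to 4.99). HFD-STZ16 replicate 1 had Myh4 at 10.18 (the others 6.40 to 7.40). HFD24 replicate 1 had a slow level of 1.47 (the other 6 mice -1.55 to -0.85) and Myh7 at 9.61 (the others 4.66 to 5.81). Over single members, 57 of 296 combinations of member and group held such a mouse, 23 of them in SD16, and the members are not independent of each other.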

How the results depend on the processing

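The count of members with an adjusted p-value under 0.05 was 0 in all 150 alternative fits of the 7 comparisons. Their counts at an unadjusted p under 0.05 were within 1.5 times those reported in 110 of 150 and outside in 40. Equal counts, also 0 against 0, were taken as within, as in every fit of HFD-STZ-DR24 against HFD-STZ24. In HFD-DR24 against HFD24, the count of 25 ran from 7 to 35 with 1 mouse left out. Mean muscle levels of the 8 groups moved by less than the SD between mice in 85 alternatives, and the alternative muscle levels had r of 0.996 or more with the one reported. Centring samples on their medians moved a sample by up to 0.16, and taking the median of the members in place of their mean by up to 1.20. The correlation of Acta1 with Myh11 (0.313) became 0.162 without the 2 farthest samples, 0.285 centred on groups and 0.201 centred on runs, and passed the threshold in none of these. Myh4 with Myh7 (0.405) became 0.326 centred on groups and 0.346 on runs, past it in neither. The cause was not tested.

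The exact tests were repeated only with each mouse left out, and none passed the threshold. Their difference kept its sign in 331 of these repeats and changed it in 45. Over the repeats, the difference ran from -0.84 to 1.75 for Myh4 and from -0.40 to 0.10 for Myh7 in HFD16 against SD16, and from -1.89 to 0.38 for Acta1 in HFD-STZ16 against SD16. In HFD-STZ24 against SD24 it ran from -0.52 to 1.08 for Myh2 and from -1.05 to 0.97 for Myh7. In HFD-STZ-DR24 against HFD-STZ24 it ran from -1.16 to 1.07 for Acta1, from -1.72 to 0.40 for Myh2 and from -1.61 to 0.94 for Myh7. Reads per gene are unknown, so what depth limits cannot be given.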
